A study of Drosophila melanogaster with 8 samples.

Results

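The respiratory chain of the mitochondrial inner membrane was examined in brains of second instar Drosophila larvae that lack STIM, an ER calcium sensor, and in wild-type brains. The members were the 13 protein-coding features of the mitochondrial genome and the 92 nuclear genes whose symbol begins with ND-, Sdh, UQCR-, COX and a digit, Cyt-c or ATPsyn, which makes 105 of 17224 annotated genes. RNA came from STIM KO larvae, a CRISPR-made null of STIM, at 72 to 76 h after egg laying, and from CS (Canton S) larvae at 58 to 62 h after egg laying. Each genotype had 4 libraries of pooled brains, counted at 395680 to 2090717 reads a library. STIM KO larvae were older, so that genotype and age cannot be told apart, and the whole brain was sampled, so that fewer cells of a type and less RNA per cell cannot be told apart either.

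Electrons enter the chain through complex I (NADH dehydrogenase) or complex II (succinate dehydrogenase), pass through complex III and cytochrome c to complex IV (cytochrome c oxidase), and the proton gradient that results drives complex V (ATP synthase). Complex II is encoded wholly in the nucleus. The other complexes are built from subunits of both genomes, and the mitochondrial ones are translated inside the organelle. Neurons depend strongly on this pathway for ATP, and mitochondria also take up calcium released from the ER.

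Of the 13 mitochondrial features, 7 encode subunits of complex I (ND1 to ND6 and ND4L), 1 encodes cytochrome b of complex III (CYTB), 3 encode the core of complex IV (COX1 to COX3) and 2 encode subunits of complex V (ATP6 and ATP8). Among the nuclear members, 40 belonged to complex I, 7 to complex II, 11 to complex III, 16 to complex IV, 15 to complex V and 2 were cytochrome c genes. Sdhaf3, which helps to assemble complex II, was the remaining one. Of these 92 genes, 26 were counted as paralogs: Cyt-c-d and the genes whose symbol ends in L, with or without a digit after it, other than ND-MNLL. The symbol rule leaves out subunits that have other symbols, so the values by complex cover only the genes it names. One left out is RFeSP, the Rieske protein of complex III, which had between 4 and 28 counts a library.

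The deleted gene was read first. One of 4 Stim transcripts had 0 counts in all 4 STIM KO libraries, against 2, 3, 6 and 9 counts in CS replicates 1 to 4. Another had 14, 19, 3 and 2 counts in STIM KO against 4, 1, 6 and 5 in CS, and the other two had none. Libraries numbered 1 and 2 stood apart from those numbered 3 and 4 in both genotypes: for numbers 1 and 2, 18.9% to 29.5% of the sequenced reads found no alignment, compared with 6.06% to 7.03% for numbers 3 and 4. Ambiguous reads made up 9.89% to 18% for numbers 1 and 2, and 33.5% to 34.5% for numbers 3 and 4. Only 3.6% to 7.31% of the reads were counted for numbers 1 and 2, and 9.82% to 11.6% for numbers 3 and 4. The shares below are of these counted reads unless another base is named. No label calls these pairs a batch. Because the pairs also differed in nearly every mitochondrial feature, the main results below are also given with a term for the library pair or within each pair.

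The neuron markers elav, nSyb, brp, Syt1, VAChT and VGlut were all detected, and their summed level was 1020 to 4110 CPM (counts scaled to a common library total) in STIM KO and 513 to 3980 in CS. VGlut had 0 CPM in STIM KO replicates 1 and 2 and CS replicate 1, and 2.02 CPM in CS replicate 2. In replicates 3 and 4 it had 11.3 to 37.9 CPM. Glial markers summed to 836 to 2950 CPM in STIM KO and 1160 to 2310 in CS, and neuroblast markers to 350 to 1390 CPM in STIM KO and 1130 to 1340 in CS. Muscle markers, mostly Act57B and Mlc2, summed to 542 to 2830 CPM in STIM KO and 738 to 5830 in CS. The 7 fat body markers reached at most 15 CPM in STIM KO and 26.3 in CS, with Fbp1 and Fbp2 at 0. The 6 markers of the ring gland, which is attached to the brain, summed to 457 to 2880 CPM in STIM KO and 846 to 8040 in CS. All 4 ring gland markers that could be tested had a log2 fold change below 0 (median -1.32, or -1.03 with the library pair as a term), and with the pair as a term sad, an enzyme of ecdysone synthesis, fell (-3.28 ± 0.56, SE; adjusted p = 0.0305, edgeR). Of 6 neuroblast markers tested, 4 were below 0 (median -1.08), and 0 passed. Among all genes tested, 47.4% were below 0 and 0% passed, or 44.1% and 0.704% with the pair as a term. The part of these cell types and tissues in the values below was not tested.

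Mitochondrial transcripts took 3.61%, 8.39%, 1.31% and 1.99% of the counted reads in STIM KO replicates 1 to 4, against 8.76%, 8.39%, 0.995% and 1.37% in CS. The genotypes overlapped: the mean was 3.83% ± 3.19 in STIM KO and 4.88% ± 4.27 in CS (SD, n = 4 each). The 95% Wilson interval of each share, which covers counting error only, was narrow (3.57% to 3.64% in STIM KO replicate 1), so that the libraries differed by far more than counting error. The level went with the library pair in both genotypes, with a mean of 7.29% in replicates 1 and 2 and 1.42% in replicates 3 and 4. As a percent of all aligned reads, counted or not, these means were 0.453% and 0.162%. In replicates 1 and 2 the mean share was 6% in STIM KO and 8.57% in CS, and in replicates 3 and 4 it was 1.65% in STIM KO and 1.18% in CS. The direction thus differed between the pairs, and the difference of -1.05 percentage points over all libraries became 0.24 without CS replicate 1, 0.117 without CS replicate 2 and 0.0187 when all aligned reads were the denominator.

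The 92 nuclear members together took 0.7%, 0.75%, 0.495% and 0.558% of the counted reads in STIM KO, against 0.741%, 1.01%, 0.7% and 0.816% in CS. STIM KO lay below CS in replicates 3 and 4, whereas in replicates 1 and 2 STIM KO replicate 2 lay above CS replicate 1. The mean was 0.626% ± 0.119 in STIM KO and 0.817% ± 0.137 in CS (SD, n = 4 each). Set against each other within a library, counts on the mitochondrial features were 5.15, 11.2, 2.65 and 3.57 times those on the nuclear members in STIM KO, against 11.8, 8.32, 1.42 and 1.67 times in CS. The ratio averaged 5.64 ± 3.85 in STIM KO and 5.8 ± 5.12 in CS (SD, n = 4 each). STIM KO had the higher ratio in both libraries of replicates 3 and 4, and in replicates 1 and 2 the genotypes overlapped. Leaving out 1 library moved the difference of -0.16 to between -2.01 (without STIM KO replicate 2) and 1.84 (without CS replicate 1), so it has no stable sign. These sums are descriptions and were not tested.

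**Figure D1:**
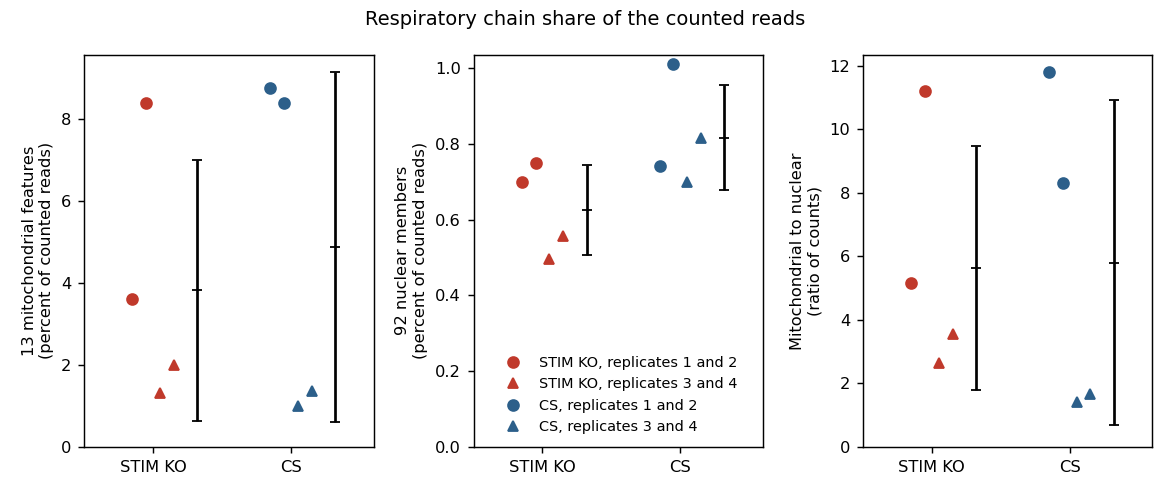
Percent of counted reads on the 13 mitochondrial features (left), percent on the 92 nuclear members (middle) and the ratio of mitochondrial to nuclear counts (right), for STIM KO (red) and CS (blue). Circles are replicates 1 and 2, triangles replicates 3 and 4, and black bars the mean ± SD of 4 libraries. The mitochondrial share was 1.31% to 8.39% in STIM KO and 0.995% to 8.76% in CS, and followed the library pair.

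No mitochondrial feature passed the test between the genotypes. In edgeR's quasi-likelihood test, adjusted by Benjamini-Hochberg for the 5540 genes tested, 0 of 13 had an adjusted p under 0.05 (0% of all genes tested did) and 0 of 13 an unadjusted p under 0.05 (6.52% of all genes did). The median log2 fold change of STIM KO over CS was -1.02, beside 0.04 for all genes tested. It was -2.15 without STIM KO replicate 2, -0.64 without STIM KO replicate 3 or 4, -0.45 without CS replicate 1 and -0.33 without CS replicate 2. All 7 complex I features were below 0 (median -1.06), as were ATP6 (-1.06 ± 0.85, SE) and ATP8 (-1.02 ± 1.0), whereas CYTB (0.24 ± 0.75), COX1 (0.02 ± 1.23), COX2 (0.57 ± 0.89) and COX3 (0.06 ± 1.09) were above. Each of these standard errors was close to the size of its fold change or exceeded it, other than that of ND6. With the library pair as a term the median became -0.50, beside 0.10 for all genes, and again 0 of 13 passed, adjusted (0.704% of all genes) or unadjusted (17.0%). The smallest adjusted p of the 13 was then 0.304, for ND6.

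ND6 (mitochondrial genome, 9971 to 10495 in dm6, plus strand), a membrane subunit of complex I, had the largest difference of the 13. It had 73.9, 296, 6.28 and 9.89 CPM in STIM KO replicates 1 to 4, against 1300, 885, 9.69 and 5.42 CPM in CS. Both STIM KO libraries lay below both CS libraries in replicates 1 and 2, and the genotypes overlapped in replicates 3 and 4. The log2 fold change was -2.52 ± 1.70 (SE; adjusted p = 0.902, edgeR), and -1.41 ± 0.66 with the library pair as a term. The first value was -4.24 without STIM KO replicate 2, and the second -0.87 without STIM KO replicate 1. An interaction of genotype and library pair had an unadjusted p of 0.0154 for ND6 and an adjusted p of 0.221 in edgeR.

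ND1, ND2, ND3 and ND4 were laid out like ND6, lower in both STIM KO libraries of replicates 1 and 2 and overlapping in replicates 3 and 4. ND1 (11721 to 12659, minus strand) had 2470, 11300, 72.4 and 86 CPM in STIM KO, against 12600, 17600, 64.2 and 98.8 CPM in CS. ND4 (8207 to 9545, minus strand) had 4120, 18100, 1240 and 1880 CPM in STIM KO, against 29900, 21900, 904 and 2030 in CS. Both had their lowest value of replicates 1 and 2 in STIM KO replicate 1. ND5 also lay lower in STIM KO in replicates 1 and 2, but in replicates 3 and 4 it had 396 and 597 CPM in STIM KO, against 311 and 342 in CS. ND4L overlapped in both pairs. The log2 fold change was -1.06 for ND2, -1.04 for ND3, -0.93 for ND5 and -0.45 for ND4L (SE 1.03 to 1.72), and with the library pair as a term -0.50, -0.59, -0.23 and -0.18 in the same gene order. Within replicates 1 and 2, 12 of the 13 mitochondrial features were on average lower in STIM KO. Within replicates 3 and 4, 11 of the 13 were on average higher in STIM KO, many of them only slightly. The median log2 difference over the 13 was 0.12 there, and -1.29 within replicates 1 and 2. In no feature did both pairs separate the genotypes in the same direction, whereas 19.3% of all genes tested did so in either direction.

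CYTB (10499 to 11635, plus strand), the only subunit of complex III that the mitochondrial genome encodes, was the feature least affected by the library pair. It had 4570, 10000, 3520 and 4920 CPM in STIM KO, against 8080, 6350, 2140 and 2880 CPM in CS. STIM KO lay above CS in replicates 3 and 4, and the genotypes overlapped in replicates 1 and 2. COX1 (1474 to 3009, plus strand), which holds the oxygen-reducing centre of complex IV, was the most abundant feature. It had 17000, 43700, 3510 and 5200 CPM in STIM KO, against 29600, 32700, 1950 and 4070 CPM in CS, with overlap in both pairs. ATP6 (4062 to 4736, plus strand), part of the proton channel of complex V, had 1790, 3100, 840 and 1280 CPM in STIM KO, against 7610, 4920, 1160 and 903 CPM in CS, and separated the genotypes in replicates 1 and 2 alone. ATP8 shares 7 bases with ATP6, so that reads over these bases match both genes.

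**Figure D2:**
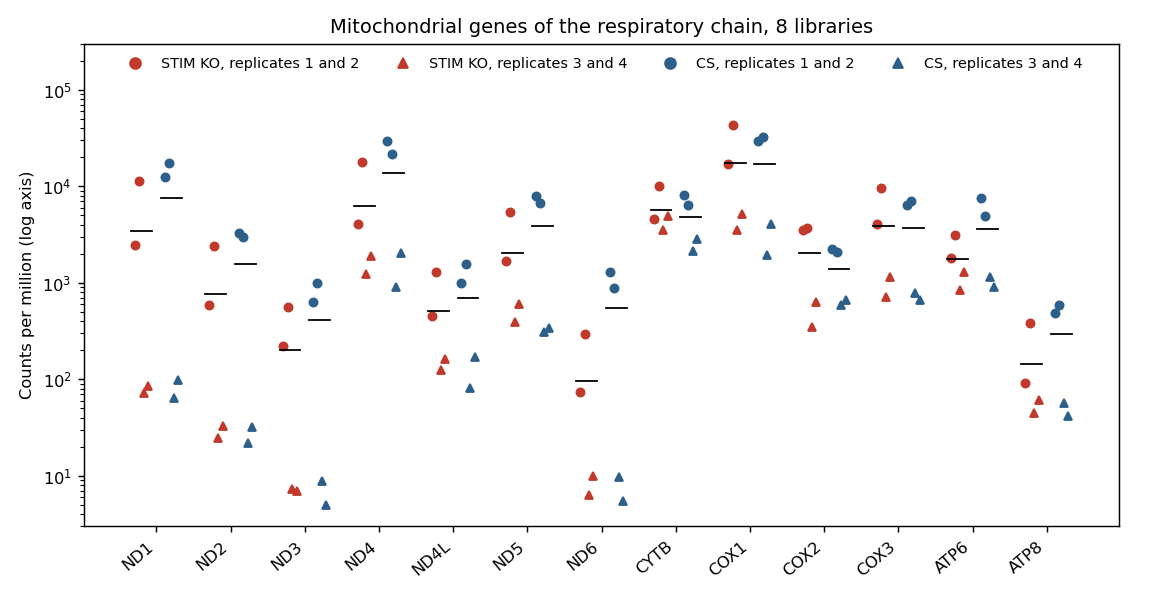
CPM (log axis) of the 13 mitochondrial features in STIM KO (red, left of each pair) and CS (blue, right) libraries. Circles are replicates 1 and 2, triangles replicates 3 and 4, and black lines the mean of 4 libraries. ND1, ND2, ND3 and ND6 split by library pair, ND1 lying at 2470 to 17600 CPM in replicates 1 and 2 and 64.2 to 98.8 CPM in replicates 3 and 4, while CYTB stays between 2140 and 10000 CPM.

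The make-up of the mitochondrial counts also followed the library pair. All 13 features were on average higher in replicates 1 and 2 than in replicates 3 and 4, 12 of them with no overlap, CYTB being the exception. Of all genes tested, 19.3% were higher in replicates 1 and 2 with no overlap and 24.8% lower. The difference in mean log2 CPM had a median of 3.07 over the 13, beside 0.84 over the 32 tested nuclear members and -0.29 over all genes tested. It was 6.78 for ND1, 6.07 for ND2, 6.0 for ND3 and 5.47 for ND6, but 1.12 for CYTB and 1.88 for ATP6. ND1 lies on the minus strand and the other three of that group on the plus strand, so the group did not follow the strand. These 4 complex I genes held 8.25%, 13.3%, 1.02% and 0.848% of the mitochondrial counts in STIM KO, against 16%, 21.1%, 1.29% and 1.18% in CS. Which step of collection, library preparation or counting separated the pairs was not tested.

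As a share of the mitochondrial counts, CYTB made up 11.2%, 9.14%, 32.4% and 30.7% in STIM KO, against 7.27%, 5.98%, 26.5% and 24.2% in CS. STIM KO lay above CS within each pair. ND1 lay the other way within each pair, with 6.09%, 10.3%, 0.668% and 0.537% in STIM KO, against 11.3%, 16.6%, 0.793% and 0.829% in CS, and ND2 did as well. For the other 10 features the pairs did not both separate the genotypes in one direction. When each mitochondrial feature was fitted against the summed mitochondrial counts with the library pair as a term, CYTB had a log2 fold change of 0.47 ± 0.42 (SE) and ND1 of -0.60 ± 0.46, and 0 of 13 had an unadjusted p under 0.05 in edgeR. The smallest was 0.0531, for ND6 (-1.35 ± 0.63). The share of all genes under 0.05 in this fit is not given here, so the count is only a description.

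Per kilobase of annotated length, COX1 had the highest mean level over the 8 libraries, with 11300 ± 12100 CPM per kb in STIM KO and 11100 ± 10600 in CS (SD, n = 4 each). ND4 (4730 ± 5930 in STIM KO and 10200 ± 10800 in CS) and ND1 (3720 ± 5700 in STIM KO and 8080 ± 9480 in CS) came next, and ND6 was the lowest. Neighbours in this order did not differ beyond their SD. The order itself depended on the library pair: in replicates 3 and 4 CYTB led in 3 of 4 libraries, with 3090 and 4320 CPM per kb in STIM KO and 1880 and 2530 in CS, against 2290 and 3390 in STIM KO and 1270 and 2650 in CS for COX1. Among nuclear members with 1 RefSeq transcript, ATPsynB was the highest (1490 ± 891 CPM per kb in STIM KO and 2590 ± 1580 in CS). Over the 8 libraries, 8 mitochondrial features had a higher mean level per kb than ATPsynB. In every library of replicates 3 and 4 only COX1 and CYTB lay above ATPsynB, and 8 features lay below it.

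The counts were made per RefSeq transcript, and among the nuclear members that are not paralogs the level went with the number of transcripts. Of the 66 nuclear members that are not paralogs, the 14 with a single transcript held 86.7% of the counts of all 66, and each averaged between 38.1 and 1870 CPM. The 24 genes with 2 transcripts held 7.35% and had a median of 3.63 CPM, and the 28 genes with 3 or more transcripts held 5.9% and had a median of 1.8 CPM. Among all other genes with at least 1 count, the medians were 3.9 CPM with 1 transcript, 2.25 with 2 and 5.35 with 3 or more. The sets are unlike: the member medians keep genes without counts and leave out paralogs, and the other genes were not sorted for paralogs. Paralogs among the members with 1 transcript averaged at most 5.4 CPM (COX5BL). UQCR-C2, a core subunit of complex III, and the accessory complex I subunits ND-15, ND-19 and ND-MNLL had no counts in any library, and COX4, a nuclear subunit of complex IV, had 36 counts over 8 libraries. ATPsynC, the ring subunit of complex V, had 16. Counts of ATPsyndelta, Cyt-c1 and Cyt-c-d all fell on 1 of their 2 or 3 transcripts. The value of such a gene covers the reads of that transcript alone. Whether reads shared between transcripts were set aside as ambiguous was not tested.

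**Figure D3:**
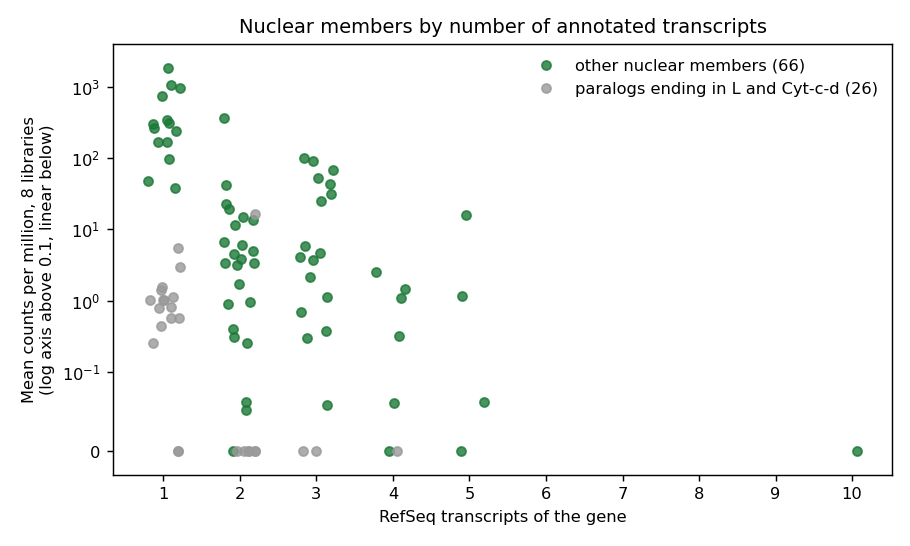
Mean CPM over 8 libraries (log axis above 0.1, linear below) of the 92 nuclear members against the number of RefSeq transcripts of the gene, with points spread sideways for legibility. Green marks the 66 members that are not paralogs and grey the 26 paralogs. The 14 green genes with 1 transcript all lie at or above 38.1 CPM, and the medians are 3.63 CPM with 2 transcripts and 1.8 CPM with 3 or more.

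After the filter on low counts, 32 of the 92 nuclear members could be tested: all 14 with a single transcript, 17 with several, and Cyt-c-d. None passed. In the edgeR test with Benjamini-Hochberg adjustment, 0 of 32 had an adjusted p under 0.05, and 2 of 32 had an unadjusted p under 0.05, both lower in STIM KO (2.96% of all genes tested, and 3.56% were higher). Over both genomes, DESeq2 gave 0 of 54 members with an adjusted p under 0.05 (1.16% of all genes that had one) and 4 of 90 with an unadjusted p under 0.05 (5.46% of all genes). The median log2 fold change was -0.43 (-0.22 without CS replicate 4), with 12 above and 20 below 0, that is 62.5% below 0, beside 47.4% of all genes. With the library pair as a term the median was -0.35 with 65.6% below 0 (44.1% of all genes), 5 of 32 had an unadjusted p under 0.05, 4 of them lower (8.03% of all genes) and 1 higher (8.94%), and the smallest adjusted p was 0.0779.

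By complex, the tested nuclear members differed in direction. For complex I, 8 of 16 were above and 8 below 0, with a median log2 fold change of 0. For complex II the 3 tested genes had a median of -0.11. All 5 tested members of complex III (median -0.60) and all 4 of complex V (median -0.86) were below 0, and both tested members of complex IV were above (median 0.42). With the library pair as a term, complex III and V kept medians of -0.70 and -0.67, while that of complex IV became -0.05. A median over 2 to 5 genes is only a description, and all genes tested had a median of 0.04, or 0.10 with the pair as a term.

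**Figure D4:**
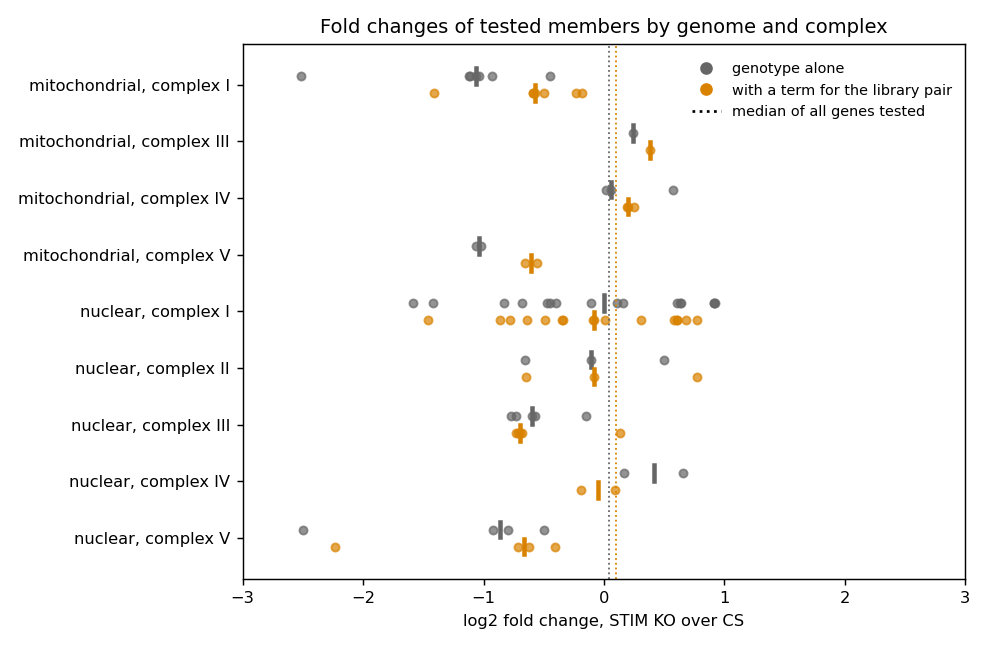
log2 fold change of STIM KO over CS for each tested member, by genome and complex, from the fit of genotype alone (grey) and with a term for the library pair (orange). Thick ticks are medians, and dotted lines the medians of all 5540 genes (0.04 and 0.10). Mitochondrial complex I lies below 0 in both fits, with medians of -1.06 and -0.57.

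ATPsyndelta (chromosome X, 10212970 to 10217393 in dm6), a subunit of the central stalk of ATP synthase, had the smallest p of all members. It had 12, 13.1, 9.18 and 2.97 CPM in STIM KO, against 112, 60.6, 23.5 and 16.7 CPM in CS. Every STIM KO library lay below every CS library. The counts behind these values were low, with 12, 9, 19 and 6 reads in STIM KO and 35, 30, 51 and 40 in CS, and all of them came from 1 of 3 transcripts. The log2 fold change was -2.50 ± 0.77 (SE; unadjusted p = 0.00928, adjusted p = 0.584, edgeR), and -2.23 ± 0.50 (adjusted p = 0.0779) with the library pair as a term. The exact 2-sided permutation test gave p = 0.0286, the smallest that 70 labelings allow, and 0.459 after adjustment over all genes tested. Only when all genes with at least 1 count were kept, in the fit with the pair, did the adjusted p reach 0.00675, and over the alternatives it spanned 0.00675 to 1.

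ND-B14.7 (chromosome 2R, 21025078 to 21026086), an accessory membrane subunit of complex I, was the other tested nuclear member whose genotypes did not overlap. It had 76.9, 108, 56.5 and 89.5 CPM in STIM KO, against 308, 402, 180 and 110 CPM in CS. The nearest values were close, 108 in STIM KO and 110 in CS. The log2 fold change was -1.59 ± 0.51 (SE; unadjusted p = 0.0108, adjusted p = 0.584, edgeR; exact permutation test, p = 0.0286), and -1.46 ± 0.35 (adjusted p = 0.0837) with the pair as a term. With the pair as a term and no filter on low counts the test gave an adjusted p of 0.025, and over the alternatives it spanned 0.025 to 1. These were 2 of 32 tested nuclear members, or 6.25%, with all STIM KO libraries below all CS libraries, as were 3.01% of all genes tested. In the other direction there was none, beside 3.21% of all genes. In CPM, ATPsynG, ND-ACP and ND-PDSW also had every STIM KO library below every CS library. They were too low to test, with 40, 18 and 28 counts over the 8 libraries, and their reads overlapped. ND-ACP had 1, 1, 0 and 2 reads in STIM KO and 1, 3, 5 and 5 in CS. ND-PDSW had 2, 1, 1 and 0 reads in STIM KO and 4, 1, 7 and 12 in CS. The shares above cover tested genes only.

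Complex II has no mitochondrial subunit. SdhB, its iron-sulfur subunit, had 624, 949, 603 and 647 CPM in STIM KO, against 798, 1120, 558 and 582 CPM in CS, and the genotypes overlapped (log2 fold change -0.11 ± 0.47, SE). SdhD, a membrane anchor, had 149, 192, 227 and 255 CPM in STIM KO, against 317, 206, 380 and 398 CPM in CS, so that STIM KO lay below CS within each pair. Its log2 fold change was -0.65 ± 0.28 with the pair as a term (unadjusted p = 0.0375, adjusted p = 0.26, edgeR). Sdhaf3, an assembly factor of complex II, had 46.9, 52.4, 4.83 and 10.9 CPM in STIM KO, against 122, 82.9, 41.5 and 22.1 CPM in CS, again lower within each pair (-1.51 ± 0.43, adjusted p = 0.115 by edgeR with the pair as a term). SdhA, the catalytic flavoprotein, has 3 transcripts and stayed at or below 10.6 CPM.

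In complex V, ATPsynB of the peripheral stalk had 1150, 2580, 794 and 952 CPM in STIM KO, against 2820, 4210, 968 and 1510 CPM in CS, and ATPsynO, which joins that stalk to the catalytic head, had 1430, 665, 673 and 756 CPM in STIM KO, against 683, 857, 1480 and 1970 CPM in CS. ATPsynB lay lower in STIM KO within each pair. ATPsynO did so in replicates 3 and 4 only, and its interaction with the library pair had an unadjusted p of 0.0269 (adjusted p = 0.259, edgeR). The catalytic ATPsynbeta had 36.5 ± 16.3 CPM in STIM KO and 70 ± 49.9 in CS (SD, n = 4 each).

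In complex III, UQCR-14, a small subunit, had 418, 384, 61.8 and 108 CPM in STIM KO, against 635, 540, 198 and 107 CPM in CS. Cyt-c1, the subunit that hands electrons to cytochrome c, had 274 ± 79.2 CPM in STIM KO and 467 ± 233 in CS (SD, n = 4 each). UQCR-6.4 had 18.2 ± 13.8 CPM in STIM KO and 27.4 ± 15.5 in CS. The log2 fold changes of these 3 genes lay between -0.77 and -0.57, and their SE between 0.51 and 0.77, and with the library pair as a term they were -0.71 for Cyt-c1, -0.70 for UQCR-14 and -0.68 for UQCR-6.4. In complex IV, COX7B had 673, 355, 49.3 and 94.9 CPM in STIM KO, against 234, 224, 188 and 94.2 CPM in CS. Its STIM KO libraries were the higher in replicates 1 and 2 and not in replicates 3 and 4, and the interaction had an unadjusted p of 0.0127 (adjusted p = 0.209, edgeR). COX7A averaged 20.7 CPM in STIM KO and 18.3 in CS, and COX5B was too low to test.

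Complex I held both directions. ND-23, an iron-sulfur subunit and the most abundant of its nuclear members, had 1310, 2190, 275 and 241 CPM in STIM KO, against 1360, 1800, 256 and 308 CPM in CS, a log2 fold change of 0.11 ± 0.92 (SE) that became 0.01 ± 0.31 with the pair as a term. ND-30 and ND-18, subunits of the peripheral arm, had log2 fold changes of -0.40 ± 0.51 and -0.68 ± 0.57, or -0.35 ± 0.32 and -0.64 ± 0.34 with the pair as a term. ND-20, another iron-sulfur subunit, had -1.42 ± 0.95, or -0.86 ± 0.44 with the pair as a term. Above 0 were ND-13A with 107, 132, 148 and 105 CPM in STIM KO, against 86.6, 121, 51.2 and 64.2 CPM in CS (0.61 ± 0.42), ND-13B (0.92 ± 0.56), ND-MWFE (0.91 ± 0.85) and ND-B22 (0.63 ± 0.57). ND-13B had the smallest unadjusted interaction p of the members, 0.00428 (adjusted p = 0.168, edgeR), with 242 and 162 CPM in STIM KO against 64.1 and 60.6 in CS in replicates 1 and 2, and 48.3 and 63.3 in STIM KO against 73.9 and 72.9 in CS in replicates 3 and 4.

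**Figure D5:**
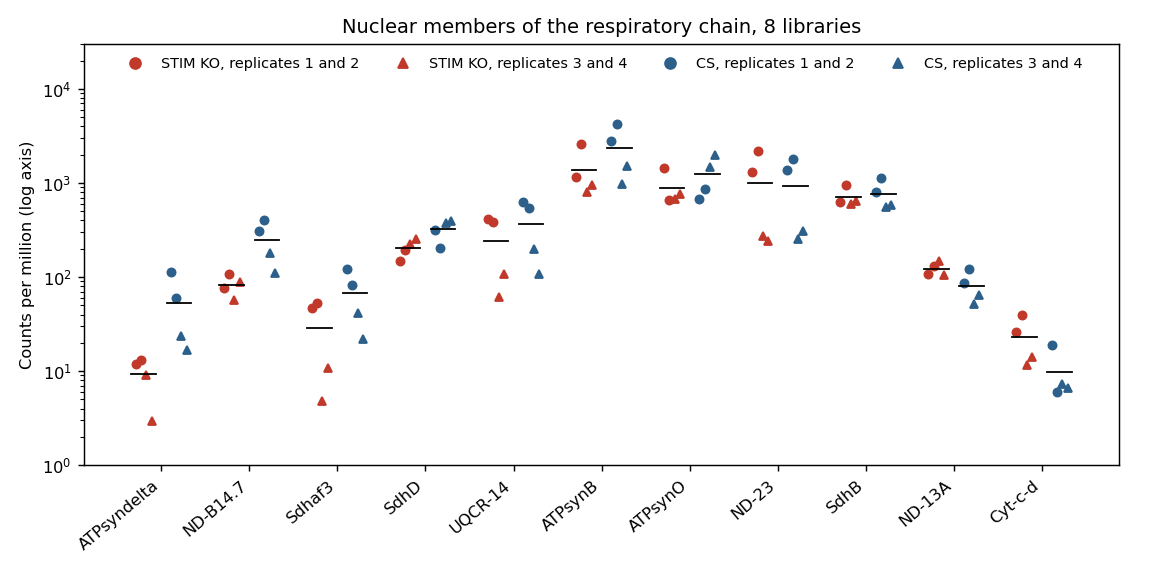
CPM (log axis) of 11 nuclear members in STIM KO (red, left of each pair) and CS (blue, right) libraries. Circles are replicates 1 and 2, triangles replicates 3 and 4, and black lines the mean of 4 libraries. ATPsyndelta and ND-B14.7 show no overlap between the genotypes, with 2.97 to 13.1 CPM in STIM KO against 16.7 to 112 in CS for ATPsyndelta.

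Within each library pair, 7 of the 32 tested nuclear members, or 21.9%, had both STIM KO libraries below both CS libraries in replicates 1 and 2 and again in replicates 3 and 4, and 9.31% of all genes tested did so. They were ATPsynB, ATPsyndelta, ND-B14.7, ND-B16.6, SdhD, Sdhaf3 and UQCR-11. The separation of UQCR-11 was slight, with 17.9 CPM in STIM KO replicate 3 and 18 in CS replicate 3. In replicates 1 and 2 it had 8 and 9 reads in STIM KO and 5 and 11 in CS. In the other direction there was 1 of 32, Cyt-c-d, beside 9.95% of all genes. The interaction of genotype and library pair had an adjusted p under 0.05 for 0 of the 45 tested members (0.0722% of all genes, edgeR) and an unadjusted p under 0.05 for 7 of 45 (15.4% of all genes).

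The cytochrome c genes and the paralogs were low. Cyt-c-p, the cytochrome c of most tissues, has 2 transcripts and had 3, 4.37, 3.86 and 3.95 CPM in STIM KO, against 0, 0, 5.08 and 5.42 CPM in CS. Cyt-c-d, which is known in Drosophila for its part in caspase activation in spermatids, had 26, 39.3, 11.6 and 14.3 CPM in STIM KO, against 19.2, 6.06, 7.39 and 6.67 CPM in CS. It lay higher in STIM KO within each pair, with a log2 fold change of 1.12 ± 0.48 with the pair as a term (unadjusted p = 0.0413, adjusted p = 0.271, edgeR). The reads behind these values were few, 26, 27, 24 and 29 in STIM KO and 6, 3, 16 and 16 in CS. Of the 26 paralogs, Cyt-c-d included, 11 had no counts in any library, and Cyt-c-d was the only one abundant enough to test. Many paralogs of this L kind are expressed mainly in the testis. Of the 15 paralogs with a count, 14 had one in CS replicate 2, while the other 7 libraries held counts of 2 to 9 of them, and 4 paralogs had counts in CS replicate 2 alone. Their summed level was 30, 62.6, 27 and 25.2 CPM in STIM KO, against 22.4, 72.8, 21.7 and 20.8 CPM in CS.

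Genes that work with the chain were read from fixed lists. For comparison, 0% of all genes tested passed in the fit of genotype alone and 0.704% with the pair as a term. Their median log2 fold changes were 0.04 and 0.10. Of 12 matched assembly factors, 8 were tested and 0 passed, with 6 above and 2 below 0 (median log2 fold change 0.27, or 0.42 with the pair as a term). Among 16 genes of mitochondrial DNA maintenance and expression, 11 were tested and 0 passed (median -0.29, or -0.08 with the pair as a term). With the library pair as a term, PolG1, the catalytic subunit of the mitochondrial DNA polymerase, had a log2 fold change of -1.42 ± 0.43 (SE; adjusted p = 0.132, edgeR) and mtSSB, which binds single-stranded mitochondrial DNA, one of -1.04 ± 0.41 (adjusted p = 0.234). PolG1 had 8.99, 32, 95.6 and 101 CPM in STIM KO, against 41.7, 97, 196 and 226 CPM in CS, and lay lower in STIM KO within each pair, as did 9.31% of all genes tested. None of the 5 carrier genes, sesB and porin among them, was abundant enough to test.

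In the tricarboxylic acid cycle, 17 genes were matched, 6 tested and 0 passed. The median changed sign with the fit: it was -0.19 for genotype alone and 0.40 with the pair as a term, where 4 were above and 2 below 0. Subunits of NAD-dependent isocitrate dehydrogenase had opposite signs with the pair as a term, 1.09 ± 0.33 (SE; adjusted p = 0.128, edgeR) for Idh3g and -0.76 ± 0.33 (adjusted p = 0.27) for Idh3a. Idh3g had 127, 115, 142 and 124 CPM in STIM KO, against 44.9, 44.5, 56.3 and 97.5 CPM in CS, with no overlap. Of all genes tested, 3.21% lay above in STIM KO in this way. In the fit of genotype alone its log2 fold change was 1.05 ± 0.42 (adjusted p = 0.697, edgeR). In glycolysis, 8 of 13 genes were tested and 0 passed. All 8 were below 0 in the fit of genotype alone (median -0.76), and 5 of 8 with the pair as a term (median -0.41). Of all genes tested, 47.4% and 44.1% were below 0 in these fits. Pfk, which catalyses its committed step, had 151, 560, 140 and 93.9 CPM in STIM KO, against 1150, 1400, 123 and 143 CPM in CS, with overlap in replicates 3 and 4.

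Outside these lists, the genes whose log2 CPM over the 8 libraries was most like that of the summed mitochondrial features were lncRNA:CR45566 (Pearson r = 0.989), CG1463 (0.988), MtnF (0.986), vn (0.986) and CG12535 (0.986). This order was found among 5540 genes over 8 libraries that share 2 pairs, and describes mainly the difference between the pairs.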

How the data were processed

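Larval brain RNA (10 ng from 15 to 20 brains) was amplified with poly(A) priming and sequenced as 50-base single reads. After trimming and HISAT2 alignment to dm6, the authors deposited raw htseq-count counts for 34463 RefSeq features in each of 8 libraries. The annotation file, counting mode and strand setting are not given in the sources used here. A deposited table of the authors' DESeq2 fold changes and p-values was not used.

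Of the features, 34399 were matched to genes by exact identifier, 13 without the version and 51 not at all, and counts were summed per gene. The fit used edgeR 4.0.16 under R 4.3.3, with TMM factors, genes kept by filterByExpr (10 counts, 15 in total) and the quasi-likelihood test of STIM KO over CS, adjusted by Benjamini-Hochberg for 5540 genes at a threshold of 0.05. The SE is the log2 fold change divided by the root of F. CPM used TMM-scaled libraries, and log2 CPM a prior count of 2. A floor of 3 counts was 1.25 to 9.62 CPM. Alternatives included DESeq2 1.42.0, other scalings, no filter, a term for the library pair (replicates 1 and 2 against 3 and 4) and leaving out each library. Exact permutation tests over 70 labelings were 2-sided. The tests were checked on simulated counts. Python 3.11.15 with matplotlib 3.10.9 made the plots. Lengths per kb came from RefSeq (mitochondrial) and Ensembl exons (nuclear).

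Members, lists and tests were chosen with earlier results of these data known. The genes named are the 13 mitochondrial features, the 3 nuclear members of highest CPM in each complex and among cytochrome c genes, the 5 with the smallest p in each direction in either fit, and members with an adjusted p under 0.05. From the lists, the genes printed were chosen after their values were seen. The study describes separately isolated RNA sets. No 2 libraries agreed within sampling noise (chi-square per degree of freedom at least 8.36). Same-numbered libraries deviated together (residual correlation 0.377 to 0.776), as did other libraries of the same pair (0.336 to 0.716), while libraries of different pairs did not (-0.788 to -0.385). The ranges within a pair overlap, so pairing by number was not set apart from the library pair. Deviations were taken from the genotype mean, so values below 0 between pairs follow partly from that centring.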

Additional observations from a re-analysis of the deposited data

Results flagged for a closer look

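In 5 cases 1 library lay far from the other 3 of its genotype on the log2 CPM scale by Dixon's criterion, which chance meets in about 1 in 20 groups. SdhB reached 949 CPM in STIM KO replicate 2, and SdhA had 0 CPM there. ATPsynO reached 1430 CPM in STIM KO replicate 1. In CS replicate 1, Cyt-c-d reached 19.2 CPM and ND-B22 was down at 6.41 CPM, which is 2 reads in the shallowest library. In all, 78 groups of 4 libraries were checked.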

How the results depend on the processing

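The count of members with an adjusted p under 0.05 was 0 under every alternative run except the fit with the library pair as a term and no filter on low counts, where it was 2 (ATPsyndelta and ND-B14.7). The replicate block gave 0 as well, as did leaving out each library in turn, so pairing by number changed no call. The combinations with the pair term were chosen after seeing the data. In the fit of genotype alone, leaving out 1 library gave a mitochondrial median log2 fold change of -2.15 (without STIM KO replicate 2) to -0.33 (without CS replicate 2). With the pair as a term it was -0.67 to -0.14 (without STIM KO replicate 1). It was -0.62 with the replicate block, -0.30 in replicates 2 to 4, -1.29 within replicates 1 and 2 and 0.12 within replicates 3 and 4. The nuclear median stayed below 0 in each alternative, from -0.52 to -0.17. Other scalings of the libraries changed the sign of neither median. Low depth in CS replicate 1 (395680 reads) and the low counts of genes with several transcripts limit what could be detected.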
